A study of Mus musculus with 10 samples.

Results

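Cytosolic nucleic acid sensors and the necroptosis machinery were examined in a mouse acute lymphoblastic leukaemia (ALL) sorted from transplanted animals. The set comprised 9 genes (Zbp1, Ifih1, Ddx58, Dhx58, Mavs, Eif2ak2, Ripk1, Ripk3 and Mlkl), and its members were all probe sets that carry one of these symbols in the platform annotation. That gave 16 probe sets for 8 genes, out of 45037 probe sets that are not controls and 18193 genes in all. Ripk1 was not analysed here. Between 1 and 3 probe sets represented each of the 8 genes, and those of 1 gene report on the same RNA and are not replicates of each other.

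RNA was measured on 10 arrays, 1 per animal, with 5 animals in each of 2 groups. The leukaemia, labelled NSTY ALL, was of C57BL/6 background, carried the human p210 bcr/abl fusion and had a deletion in the Ink4a/Arf locus in both groups. All recipients were C57BL/6 mice conditioned by whole-body irradiation and 5-fluorouracil, and they received the leukaemia mixed with donor marrow and spleen cells. Donor cells were C57BL/6 in the syngeneic group and C3.SW in the allogeneic group, and in both the leukaemia was sorted and moved to fresh transplant recipients over 3 transplants of 2 to 3 weeks each before the final sort on a GFP marker from marrow. The sources used here do not give the age of the animals, whether the leukaemia is a single clone, or whether animals of a group shared an earlier recipient. Allogeneic sample titles end in a pair of numbers, and only animals 4 and 5 share the first of the pair. What that number stands for is not stated, and a shared earlier recipient was not tested. The tests treat all 5 allogeneic animals as independent. The p-values thus cover only the animal-to-animal spread within these groups, which may be partly technical. The comparison asks how leukaemia grown under an allogeneic immune environment differs from leukaemia grown under a syngeneic one.

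The RNA sensors of this set detect double-stranded or otherwise unusual RNA in the cytosol. Ddx58 encodes RIG-I, Ifih1 encodes the related helicase MDA5, and Dhx58 encodes their regulator LGP2, which lacks the signalling domains of the other members of the family. RIG-I and MDA5 act through the mitochondrial adaptor Mavs to switch on interferon genes, while Eif2ak2 encodes PKR, a kinase that stops translation when it binds double-stranded RNA. Zbp1 recognises nucleic acids in the Z form and can pass the signal to the kinase Ripk3, which activates Mlkl, the protein that permeabilises the plasma membrane in necroptosis. Many genes of this group are known targets of interferon.

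Start-site sequence is shown because it bears on which members carry the letters of known interferon-response motifs. RefSeq windows on GRCm38.p6, from 250 bases before to 50 bases after the annotated start, were at hand for 7 of the 9 members and for 6 of the 8 measured ones; Zbp1 and Dhx58 have no entry. The stretches below are 30 bases long, run 5′ to 3′ on the strand of the gene, and have the matched letters in capitals. The first 3 hold the core of the interferon-stimulated response element, searched on both strands as GAAA, any 2 bases and GAAA. The last holds the same letters with 1 base between, GAAANGAAA, a spacing added after the sequences were seen.
Ifih1, chr2:62646206-62646235, minus strand: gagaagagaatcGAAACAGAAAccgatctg
Eif2ak2, chr17:78882535-78882564, minus strand: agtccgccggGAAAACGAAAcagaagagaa
Ddx58, chr4:40239804-40239833, minus strand, match on the opposite strand: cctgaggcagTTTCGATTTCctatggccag
Ddx58, chr4:40239866-40239895, minus strand: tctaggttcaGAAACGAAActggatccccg
Counted from the start site, the Ifih1 match spans bases 33 to 42, the Eif2ak2 match bases 19 to 28 and the first Ddx58 match bases 3 to 12, all in the transcribed part, while the second Ddx58 match spans -60 to -52. Of 32851 windows of the same length over all genes, 3.44% held the core with 2 bases between and 3.17% held GAAANGAAA. The gamma-activated site TTCNNNGAA, which reads the same on both strands, was in 8.3% of all windows and, among measured members, in that of Eif2ak2 alone, at -178 to -170. It overlapped none of the stretches shown. The windows of Mavs, Ripk3 and Mlkl held none of the 3 motifs. A match describes the letters of the window and is not evidence of a bound site.

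Zbp1 and Ifih1 rose in leukaemia from allogeneic recipients, and no member fell. Of the 16 member probe sets, 3 rose by limma at an adjusted p under 0.05, namely both of Zbp1 and the single one of Ifih1, against 0.271% of all probe sets that rose (0.411% rose or fell). The other 13 did not pass. None fell by limma, against 0.140% of all probe sets, and at an unadjusted p under 0.05 there were 5 higher and 0 lower, against 7.90% and 9.02% of all probe sets. All 5 allogeneic values lay above all 5 syngeneic ones for 4 member probe sets, against 2.37% of all probe sets. The median log2 difference, allogeneic minus syngeneic, was 0.22 over the 16 and -0.014 over all probe sets, and 15 of the 16 exceeded the background limit on at least 5 arrays. In bulk RNA, a change in the share of cells that express a gene and a change in its level per cell cannot be told apart.

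**Figure D1:**
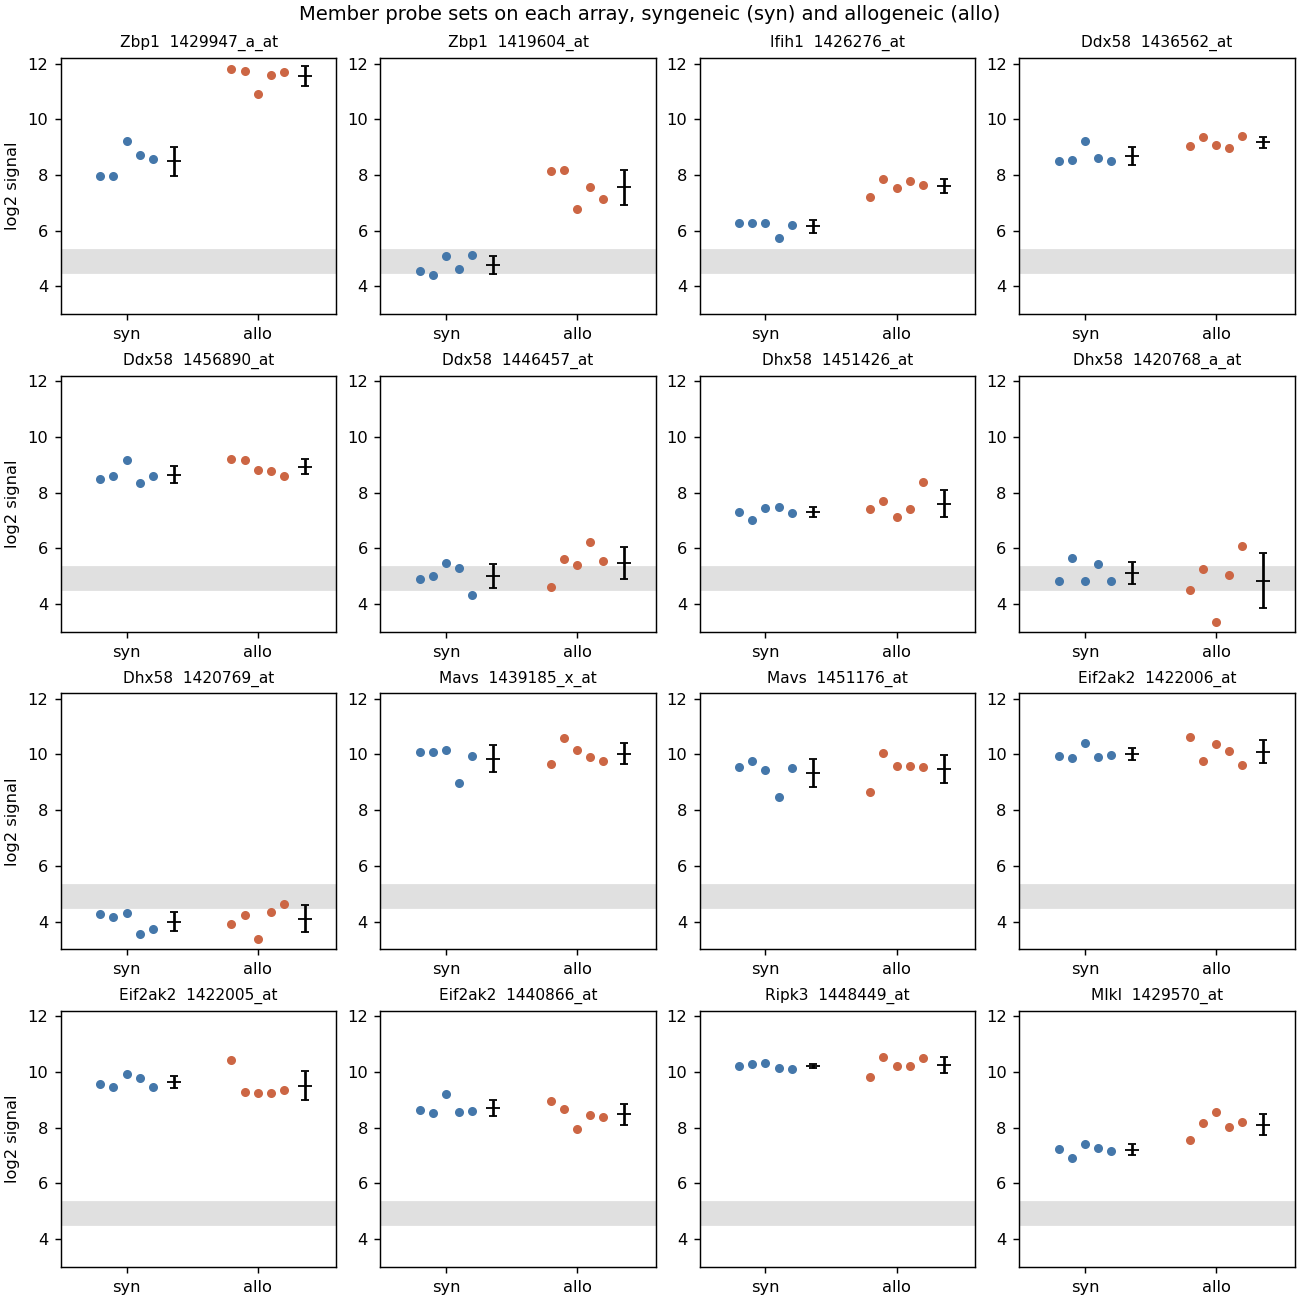
Quantile-normalized log2 signal of the 16 member probe sets on each array, with syngeneic animals 1 to 5 in blue and allogeneic animals 1 to 5 in orange, from left to right. Black marks show the mean and SD of 5 animals, and the grey band spans the background limits of the 10 arrays (4.50 to 5.32). The groups are apart for both Zbp1 probe sets, Ifih1 and Mlkl, and overlap for the rest.

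Zbp1, the sensor at the head of the necroptosis branch, had the largest difference among members. Its brighter probe set, 1429947_a_at, read 7.96, 7.96, 9.22, 8.71 and 8.58 on the log2 scale in syngeneic animals 1 to 5 and 11.80, 11.75, 10.92, 11.60 and 11.69 in allogeneic animals 1 to 5. The groups did not overlap, and the nearest values were syngeneic animal 3 and allogeneic animal 3. In the deposited linear intensities, the syngeneic arrays ran from 251 to 572 and the allogeneic arrays from 1895 to 3487. Zbp1 rose by 3.06 on the log2 scale (SE 0.28, 95% interval 2.45 to 3.68, 5 animals per group), which is 8.36-fold, with an adjusted p of 0.00141 by limma. It ranked 19 by p among the 45037 probe sets.

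The other Zbp1 probe set, 1419604_at, gave a like difference from a much lower signal. It read 4.55, 4.42, 5.09, 4.64 and 5.14 in syngeneic animals 1 to 5 and 8.13, 8.19, 6.77, 7.57 and 7.13 in allogeneic animals 1 to 5. Only 2 of the 5 syngeneic arrays exceeded the background limit, so the fold rests on a level near background, whereas all 5 allogeneic arrays exceeded it. The difference was 2.79 (SE 0.30, 95% interval 2.13 to 3.45) with an adjusted p of 0.00374 by limma. On both probe sets allogeneic animal 3 was the lowest of its group.

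Ifih1, the sensor of long double-stranded RNA, was the other member that rose. Probe set 1426276_at read 6.27, 6.29, 6.27, 5.74 and 6.22 in the syngeneic animals and 7.20, 7.87, 7.54, 7.80 and 7.63 in the allogeneic animals. The lowest allogeneic value, from animal 1, exceeded the highest syngeneic value by more than the range among syngeneic animals. The rise was 1.45 (SE 0.17, 95% interval 1.07 to 1.84), or 2.74-fold, with an adjusted p of 0.00684 by limma. The window of this gene holds the response element core shown above.

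Ddx58, which encodes the sensor of RNA with a free triphosphate end, did not pass on any of its 3 probe sets. Probe set 1436562_at read 8.52, 8.55, 9.23, 8.63 and 8.49 in the syngeneic animals and 9.04, 9.36, 9.10, 8.96 and 9.41 in the allogeneic animals. All 5 allogeneic values exceeded the syngeneic mean of 8.68, but syngeneic animal 3 stood above 3 of them. The difference was 0.49 (SE 0.18, 95% interval 0.095 to 0.89, adjusted p = 0.209 by limma). The remaining probe sets, 1456890_at and 1446457_at, gave differences of 0.28 with SE 0.19 (adjusted p = 0.493 by limma) and 0.48 with SE 0.30 (adjusted p = 0.457 by limma), and the latter exceeded background on 2 of 5 syngeneic arrays.

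Dhx58, the regulator of both helicases, also did not pass. Its brightest probe set, 1451426_at, read 7.31, 7.03, 7.46, 7.50 and 7.25 in the syngeneic animals and 7.40, 7.68, 7.11, 7.40 and 8.40 in the allogeneic animals. Allogeneic animals 5 and 2 stood above the syngeneic range, and the remaining 3 lay within it. The difference was 0.29 (SE 0.23, 95% interval -0.23 to 0.81, adjusted p = 0.561 by limma). Its other probe sets differed in sign, both from a level near background. Probe set 1420768_a_at, which exceeded background on 3 syngeneic and 2 allogeneic arrays, differed by -0.26 (SE 0.44). Probe set 1420769_at, which was not well above background on any array, differed by 0.10 (SE 0.26).

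Mavs, the adaptor on which the helicases converge, overlapped between groups. Probe set 1439185_x_at ran from 8.98 to 10.15 in syngeneic and from 9.67 to 10.60 in allogeneic animals, and differed by 0.17 (SE 0.27, 95% interval -0.42 to 0.76). Probe set 1451176_at differed by 0.14 (SE 0.30, 95% interval -0.53 to 0.81). Both adjusted p-values, 0.787 and 0.850 by limma, missed the threshold, and the intervals include changes in either direction. On both probe sets syngeneic animal 4 and allogeneic animal 1 were the lowest of their groups.

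Eif2ak2, the kinase PKR, did not pass on any of 3 probe sets, and these differed in sign. The brightest, 1422006_at, read 9.93, 9.88, 10.42, 9.89 and 9.98 in the syngeneic animals and 10.61, 9.75, 10.37, 10.12 and 9.62 in the allogeneic animals, a difference of 0.075 (SE 0.21, 95% interval -0.40 to 0.55). Probe set 1422005_at differed by -0.13 (SE 0.24) and 1440866_at by -0.23 (SE 0.21), and the adjusted p-values of the 3 ran from 0.630 to 0.893 by limma. On 1422005_at allogeneic animal 1 read 10.43 against 9.23 to 9.35 in the other 4, so that all 4 lay below the lowest syngeneic value of 9.46. Without allogeneic animal 1 its difference was -0.36, which did not pass (adjusted p = 0.165 by limma). The window of Eif2ak2, like those of Ifih1 and Ddx58, holds the response element core. Of these 3 members only Ifih1 rose, and a link between the core and the rise was not tested.

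Ripk3, the kinase that Zbp1 engages, had the smallest difference of all members. Probe set 1448449_at read 10.22, 10.29, 10.32, 10.14 and 10.11 in the syngeneic animals and 9.82, 10.53, 10.21, 10.22 and 10.51 in the allogeneic animals. Allogeneic animal 1 was the lowest of all 10, and allogeneic animals 2 and 5 were the highest. The difference was 0.042 (SE 0.16, adjusted p = 0.922 by limma), with a 95% interval of -0.31 to 0.39 that excludes a change as large as that of Zbp1 or Ifih1.

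Mlkl, the effector of membrane rupture, was higher on every allogeneic array but did not pass. Probe set 1429570_at read 7.24, 6.91, 7.43, 7.28 and 7.18 in the syngeneic animals and 7.55, 8.17, 8.58, 8.04 and 8.22 in the allogeneic animals. The groups did not overlap, with allogeneic animal 1 closest to the syngeneic range. The difference was 0.90 (SE 0.19, 95% interval 0.47 to 1.33), or 1.87-fold, with an adjusted p of 0.0864 by limma. Without allogeneic animal 1 the difference was 1.05 and passed (adjusted p = 0.0145 by limma), and over all 18 other settings it passed in 5, with adjusted p-values from 0.0145 to 0.203.

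**Figure D2:**
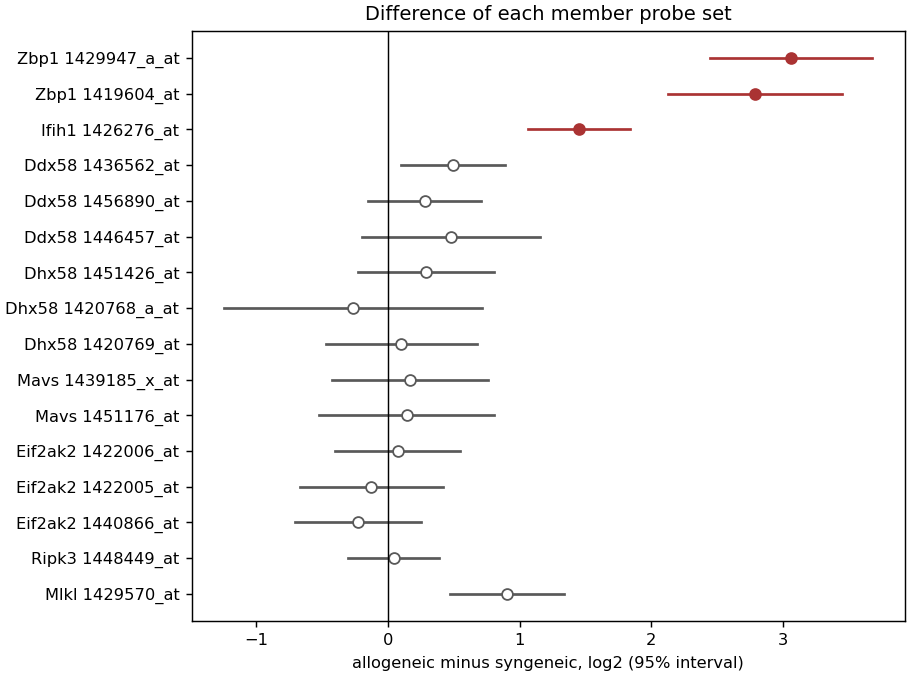
Allogeneic minus syngeneic log2 difference of each member probe set (points) with its 95% interval (lines) from limma, 5 animals per group. Filled red points passed at an adjusted p under 0.05 over all probe sets; both Zbp1 probe sets (3.06 and 2.79) and Ifih1 (1.45) did, while Mlkl (0.90) and Ddx58 1436562_at (0.49) have intervals above 0 but did not.

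Members of the same branch were then compared with each other on each array, since a pass for one gene and none for another does not show that their changes differ. The probe set of highest mean stood for each gene, and 5 pairs were tested with a 2-sided exact permutation test over all 252 assignments of 5 animals to each group, which cannot give less than p = 0.00794. In the necroptosis branch, the ratio of Zbp1 to Ripk3 was higher in the allogeneic group by 3.02 on the log2 scale (exact permutation p = 0.00794, 0.0132 adjusted over the 5 pairs). The ratio of Ripk3 to Mlkl was lower there, with a difference of -0.86 (exact permutation p = 0.00794, adjusted 0.0132). Mlkl itself did not pass across all probe sets, as given above.

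Among the helicases, the difference of Ifih1 exceeded those of its relatives. The ratio of Ifih1 to Ddx58 was higher in the allogeneic group by 0.96 (exact permutation p = 0.00794, adjusted 0.0132) and that of Ifih1 to Dhx58 by 1.16 (exact permutation p = 0.0159, adjusted 0.0198). The ratio of Ddx58 to Dhx58 differed by 0.20, within the spread between animals (SD 0.27 and 0.35; exact permutation p = 0.333). These pairs were chosen with earlier results of the same data known, and 2 planned pairs with Ripk1 were not run.

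**Figure D3:**
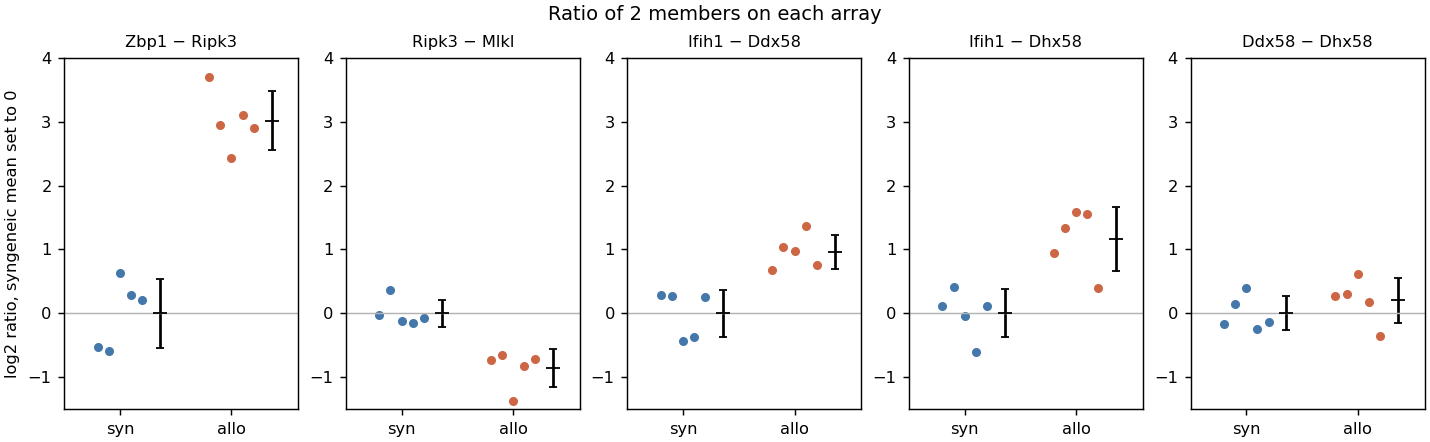
Log2 ratio of 2 members on each array, shifted so that the syngeneic mean is 0, for 5 pairs; points are animals 1 to 5 of each group and black marks are the mean and SD of 5. The groups are apart for Zbp1 to Ripk3, Ripk3 to Mlkl and Ifih1 to Ddx58, and overlap through allogeneic animal 5 for Ifih1 to Dhx58 and more widely for Ddx58 to Dhx58.

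Genes around the members were described from fixed lists, each gene by its probe set of highest mean, with the median log2 difference of all 18193 genes at 0.011. Counted the same way, 0.368% of all genes rose and 0.0550% fell by limma, so that a list of this size would hold few or no called genes at the background share. At an unadjusted p under 0.05, 8.76% of all genes were higher and 6.62% lower. Cofactors of RNA sensing had 0 of 18 genes that rose or fell by limma (1 higher and 1 lower at an unadjusted p under 0.05) and a median difference of -0.014. The RNA-editing enzyme gene Adar, which restrains these sensors, differed by 0.32 (SE 0.14, adjusted p = 0.289), and Rnf135, a ubiquitin ligase gene that activates RIG-I, by 0.48 (SE 0.23, adjusted p = 0.319). Dhx36, a helicase gene, had the smallest p of the list with -0.75 (SE 0.21, adjusted p = 0.138), and its 5 allogeneic values lay below all syngeneic ones.

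Of the genes that carry the signal below Mavs, 0 of 15 measured rose or fell by limma (1 higher and 0 lower at an unadjusted p under 0.05), with a median of 0.022. Irf7, a transcription factor gene that is itself induced by interferon, had means of 5.57 (SD 0.67) and 6.96 (SD 0.38). The difference was 1.39 (SE 0.32, adjusted p = 0.101 by limma), and its groups did not overlap. Irf7 exceeded background on only 3 syngeneic arrays but on all 5 allogeneic ones. The kinase genes Tbk1 and Ikbkb gave differences of -0.27 with SE 0.17 (adjusted p = 0.467 by limma) and -0.35 with SE 0.17 (adjusted p = 0.336 by limma). Ifnb1, the interferon gene at the end of the pathway, was not well above background on any array.

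Sensors of cytosolic DNA gave 0 calls among 8 measured genes by limma, with 2 higher and 0 lower at an unadjusted p under 0.05 and a median of 0.057. Cgas, the DNA-sensing synthase gene, differed by 0.95 (SE 0.35, adjusted p = 0.219), and its adaptor Sting1 by 0.28 (SE 0.18, adjusted p = 0.454). Ifi204 differed by 1.17 (SE 0.51, adjusted p = 0.286) but exceeded background on only 1 syngeneic and 4 allogeneic arrays. Of 11 measured genes around the eIF2 kinases, 0 rose or fell, also at an unadjusted p under 0.05, and their median was -0.087. That list also held eIF2 subunits, the phosphatase that opposes PKR, and stress-response genes such as Ddit3. The smallest p of that list belonged to Eif2ak4 (-0.25, SE 0.13, adjusted p = 0.361), Ddit3 (0.24, SE 0.15, adjusted p = 0.430) and Ppp1r15b (-0.21, SE 0.13, adjusted p = 0.455), all by limma.

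Of the regulators of necroptosis around Ripk1, Ripk3 and Mlkl, 0 of 28 genes rose or fell by limma (2 higher and 1 lower at an unadjusted p under 0.05), with a median of 0.035. Tlr3, an endosomal sensor of double-stranded RNA that can feed into Ripk3, differed by 0.94 (SE 0.22, adjusted p = 0.0986), the smallest p of this list. Tnfaip3, a ubiquitin-editing brake on cell death, differed by 0.44 (SE 0.16, adjusted p = 0.210), and Xiap, an inhibitor of apoptosis, by -0.43 (SE 0.19, adjusted p = 0.284). Tnfrsf1a, the death receptor through which TNF can start necroptosis, was not well above background on any array.

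Interferons, their receptors and signal transducers had 1 gene of 15 measured that rose and 0 that fell by limma, with 4 higher and 0 lower at an unadjusted p under 0.05 and a median of 0.18. Irf1, a transcription factor gene induced by interferon, rose by 1.71 (SE 0.15, adjusted p = 0.00141), from 10.17 (SD 0.20) to 11.88 (SD 0.21). Irf9, the DNA-binding partner in the type I interferon complex, had means of 8.91 (SD 0.45) and 9.90 (SD 0.27), a difference of 0.99 (SE 0.23, adjusted p = 0.101), and the receptor gene Ifnar2 differed by 0.71 (SE 0.23, adjusted p = 0.173). Of the interferon genes, Ifna2, Ifna4, Ifnb1 and Ifng were not well above background on any array. The single probe set annotated to Ifna1 exceeded background on all 10, with means of 5.84 (SD 0.13) and 6.23 (SD 0.16). These differed by 0.39 (SE 0.13, adjusted p = 0.180 by limma), with no overlap between groups. The identifier of that probe set ends in _x_at, and whether it reads Ifna1 alone was not tested. Its signal is therefore not evidence that the leukaemia expressed Ifna1.

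**Figure D4:**
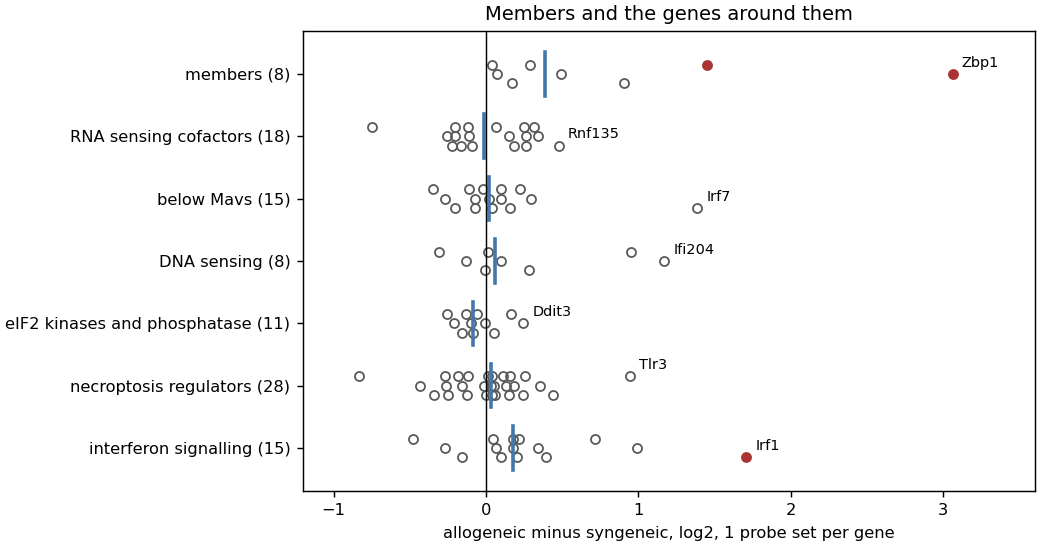
Allogeneic minus syngeneic log2 difference of the 8 members and of the genes in 6 surrounding lists, 1 probe set per gene; blue bars are medians, filled red points passed at an adjusted p under 0.05 by limma, and the gene of highest difference in each list is named. Zbp1, Ifih1 and Irf1 are the genes that passed.

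The pattern of Zbp1 over the 10 arrays was closest to those of other genes that rose. Likeness was the root mean square difference of log2 values, each centred on its own mean, over 12192 genes above background on at least 5 arrays. The 5 nearest were Rtp4 (0.42), Batf2 (0.45), Oas3 (0.45), Plaat3 (0.47) and Ifit1bl1 (0.51), all of which rose by limma. Batf2 was not well above background on any syngeneic array and Oas3 exceeded it on 1, while Rtp4 rose by 3.14 (SE 0.35), Plaat3 by 2.79 (SE 0.23) and Ifit1bl1 by 2.68 (SE 0.27). Among members, Ifih1 stood at 0.95 from Zbp1 and Mlkl at 1.19. Ripk3 (1.58), Mavs (1.57) and Eif2ak2 (1.56) were the farthest, at nearly the same distance. The measure is dominated by the size of the group difference, which all 5 share.

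Cell type markers were read beside these differences because the sort could hold other cells. Of 12 measured markers of B-lymphoid leukaemia, all but Pax5 exceeded background on every array, and Cd24a had the highest mean signal with 13.84 and 13.85. Pax5 exceeded it on 4 syngeneic and 2 allogeneic arrays, with means of 5.58 and 4.37 and a difference of -1.21 (SE 0.53, adjusted p = 0.279 by limma). Their summed signal ran from 16.22 to 16.25 in syngeneic and from 16.26 to 16.29 in allogeneic animals, narrowly apart, with 0 called by limma (0 higher and 1 lower at an unadjusted p under 0.05). Of 15 macrophage and monocyte markers 0 were called by limma (2 higher and 0 lower at an unadjusted p under 0.05) and 8 had a positive difference. Their summed signal on the log2 scale was 13.26 to 13.55 in syngeneic and 13.69 to 13.86 in allogeneic animals, without overlap. Each such sum adds linear signals, so the brightest markers, here Fcgr3 and Mpeg1, make up most of it. Fcgr3 had the highest mean over all arrays (12.25 and 12.46), and Mpeg1 was brighter in the allogeneic group (11.95 and 12.63, a difference of 0.68 with SE 0.23, adjusted p = 0.186 by limma). Csf1r, Cd68, Ccr2, C1qa, C1qb and Mrc1 had negative differences, of which none was called. Cd14 and Itgam were not well above background on any array, and Adgre1 exceeded it on 3 allogeneic arrays alone. The 10 stroma and endothelium markers, brightest in Pecam1, ran from 9.35 to 9.76 and from 9.78 to 10.09 in sum, also without overlap, and 0 were called by limma (2 higher and 0 lower at an unadjusted p under 0.05). Of these, 9 had a positive difference and Cxcl12 was not well above background on any array. Cdh5 and Kdr exceeded background on 1 allogeneic array each and on no syngeneic array. Pecam1 had means of 8.75 and 9.16 and overlapped between groups. Summed signals overlapped between groups in the other 5 lists, in which 0 genes were called by limma, with 6 higher and 0 lower at an unadjusted p under 0.05. The 8 dendritic cell markers, brightest in Ccr7, ran from 9.25 to 10.11 and from 9.62 to 10.45, with Itgax, Cd209a and Batf3 not well above background on any array. Their median difference was 0.48, and 3 were higher at an unadjusted p under 0.05, against 8.76% of all genes. The 3 were Cd209a, Batf3 and Zbtb46. Only Zbtb46 exceeded background, on every array, with a difference of 0.58 (SE 0.16, adjusted p = 0.138 by limma). The 8 T cell markers, brightest in Cd8a, ran from 7.66 to 7.96 and from 7.68 to 8.10, with Cd8b1 and Cd28 not well above background. The 7 NK cell markers, brightest in Gzma, ran from 9.48 to 10.004 and from 9.96 to 10.75, with Ncr1, Klrk1, Gzmb and Eomes not well above background. Gzma had means of 8.86 and 9.92, a difference of 1.06 (SE 0.26, adjusted p = 0.110 by limma), and its groups overlapped. Of the 7, 5 had a positive difference. The 7 granulocyte markers, brightest in S100a8, spread widely in both groups (10.89 to 12.21 and 10.31 to 12.89), and the 4 erythroid markers, brightest in Klf1, ran from 6.85 to 7.11 and from 6.77 to 7.34, with Hba-a1 not well above background. The part of other cells in the rises of Zbp1 and Ifih1 was not tested.

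Library quality overlapped between groups, but 3 allogeneic arrays stood apart in their deposited values. The ratio of 3′ to 5′ Gapdh control signal, a sign of RNA integrity, was 1.46 to 1.56 in syngeneic and 1.38 to 1.59 in allogeneic animals. The lower quartile of deposited intensity was 18.7 to 19.5 in allogeneic animals 1, 3 and 4 and 13.8 to 14.4 in the other 7 arrays. With those 3 arrays left out, the differences were 3.27 for Zbp1 1429947_a_at, 2.98 for Zbp1 1419604_at and 1.63 for Ifih1, and all 3 passed by limma. That fit kept only animals 2 and 5 in the allogeneic group. Over all probe sets it called 676 that rose and 1359 that fell, against 122 and 63 in the main fit.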

How the data were processed

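The authors deposited 1 linear intensity per probe set and array. The sources used here do not say how these were summarised and scaled. Intensities were converted to log2 and quantile normalized, since the arrays did not share a distribution, and 64 control probe sets were left out. Symbols came from the platform annotation, updated by gene identifier for 34741 of 34945 probe sets with 1 symbol; 932 had several and 9160 none. The background limit of an array was the 95th percentile of 27 bacterial control probe sets, and precision is limited by the number of arrays. Groups were compared with limma 3.58.1 (lmFit, eBayes) in R 4.3.3, with Benjamini-Hochberg adjustment over all 45037 probe sets, which gives every adjusted p of a gene. On simulated data of 5 against 5 over 45037 probe sets, the fit recovered 80.8% of rises and 78.8% of falls of 2 on the log2 scale, 30.4% and 33.2% at 1, and 5.58% of calls were false. The simulated noise was independent between probe sets, and changes were planted only above the lower quartile of mean signal. These rates may therefore not hold for the real arrays. Genes named were all members, and called genes and the 3 of smallest p in each pathway list. Also named were the brightest marker of each cell type and the 5 genes nearest to Zbp1. After their values were seen, Mpeg1, Pax5, Ifna1, Zbtb46, macrophage markers of negative difference, and markers and list genes at or near background were added. Members and lists were chosen with earlier results of these data known. Alternatives covered normalization, low values, probe set choice, eBayes settings, array weights, single samples and a replicate block.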

Additional observations from a re-analysis of the deposited data

Results flagged for a closer look

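Each of the 32 groups of 5 values (16 member probe sets in 2 groups) was searched for an animal far from the rest, a search in which chance would mark about 1 in 20; 8 were marked. In the syngeneic group, animal 3 stood above the others for Eif2ak2 on 1422006_at, at 10.42 against 9.88 to 9.98, and on 1440866_at, at 9.225 against 8.54 to 8.62. The same animal stood at 9.229 against 8.49 to 8.63 for Ddx58 on 1436562_at. Syngeneic animal 4 stood below the others for Ifih1, at 5.74 against 6.22 to 6.29, and for Mavs, at 8.98 against 9.94 to 10.15 on 1439185_x_at and at 8.48 against 9.44 to 9.75 on 1451176_at. In the allogeneic group, animal 1 stood at 10.43 against 9.23 to 9.35 for Eif2ak2 on 1422005_at, and animal 3 at 10.92 against 11.60 to 11.80 for Zbp1 on 1429947_a_at.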

How the results depend on the processing

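Of 411 values under 19 other settings, 375 stayed on their side of the threshold or, for counts, within 1.5 times, and no called result changed sign. Signs did change under some settings, 12 values in all, for 6 probe sets that were not called, of Dhx58, Eif2ak2, Mavs and Ripk3. Member probe sets that rose numbered 3 or 4 when single samples were left out, 4 with Mlkl added without allogeneic animal 1, and none fell. With the replicate block 0 of 16 rose by limma (5 higher and 0 lower at an unadjusted p under 0.05); adjusted p-values were 0.119 and 0.131 for Zbp1 and 0.131 for Ifih1, and over all probe sets 7 rose and 0 fell (3404 higher and 3800 lower unadjusted). The sample descriptions, from which the block was taken, number the animals of both groups alike and state no pairing. The sample titles number them differently. Deviations of same-numbered animals correlated between -0.207 and 0.349, and 2 of 5 syngeneic animals correlated best with their own number. These correlations cannot decide whether the animals were paired. Over all probe sets, the 122 that rose and 63 that fell became 266 and 244 with 16 added before log2, 292 and 190 with trend and robust eBayes, 342 and 274 with low probe sets left out, 553 and 845 with array weights, 676 and 1359 without allogeneic animals 1, 3 and 4, and 14 fell with 1 probe set per gene. Leaving out 1 sample gave 58 to 634 that rose and 12 to 1401 that fell; both highest counts came without allogeneic animal 1. Without syngeneic animals 1 to 5 in turn, 58, 59, 68, 76 and 58 rose and 15, 17, 17, 36 and 12 fell, and without allogeneic animal 4, 65 rose and 21 fell. The cause was not tested. All 4 pair differences that passed did so under the 12 other settings run for them, and Ddx58 against Dhx58 passed under none. Those settings were no quantile normalization, the mean over the probe sets of a gene, and single samples left out. Neither the replicate block nor the removal of allogeneic animals 1, 3 and 4 together was run for the pairs.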
